A study of Mus musculus with 20 samples.

Results

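RAW264.7 cells, a virus-transformed mouse macrophage line labelled as monocyte-derived with bone marrow as its source, were given the BET bromodomain inhibitor I-BET alone, and their messenger RNA was compared between 14 h and 4 h of exposure. The comparison used the 4 libraries labelled as I-BET only at these hours, 2 per hour, out of 20 libraries in the study, and all genes that passed a filter on low counts. The study asked how the inhibitor acts on cells that are turned into osteoclasts by the cytokine RANKL, with and without that cytokine. Its 10 groups held 2 libraries each. I-BET alone was given at 500 nM for 4, 14 or 24 h. RANKL (50 ng/ml) together with I-BET (500 nM), and RANKL alone (50 ng/ml), were sampled at the same hours, and untreated cells of the same line were sampled at 0 h.

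BET proteins bind acetylated lysines of histones through their bromodomains and recruit the elongation factor P-TEFb to promoters and enhancers. Inhibitors of the I-BET class occupy the bromodomains and release the proteins from chromatin, and transcription of genes with strong enhancers is often the first to fall. In macrophages these genes include cytokine and interferon-stimulated genes. Release of P-TEFb from its inhibitor Hexim1, and higher Hexim1, Brd2 and histone RNA, are commonly seen soon after the inhibitor is added.

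Total counts were 61207777 and 44127631 in the 14 h libraries and 44110595 and 41523157 in the 4 h libraries, and 19051780 to 62313792 over the whole study. Genes related to ribosomal RNA took 8.67% of all counts in untreated library 2 and 0.354% to 1.10% elsewhere. All 9 macrophage markers were detected, with summed levels of 6548 to 7623 CPM (counts scaled to equal library size) at 14 h and 6773 to 7823 CPM at 4 h. The summed level of 14 T and B cell markers was 1.02 to 1.23 CPM at 14 h and 1.39 to 1.52 CPM at 4 h, with Cd3e and Cd8a at 0 in every I-BET library of these hours. Markers of stromal, epithelial and endothelial cells summed to at most 0.454 CPM at 14 h and 0.513 CPM at 4 h, and those of granulocytes and mast cells to at most 1.39 CPM and 1.65 CPM. The labels do not state whether the 2 libraries of a group are separate cultures. The p-values therefore reflect only how these samples vary, which may be technical.

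Between 4 and 14 h more genes fell strongly than rose strongly. Of 16042 genes tested, 852 (5.31%) were called at an adjusted p under 0.05 in edgeR's quasi-likelihood test, 418 (2.61%) of them higher and 434 (2.71%) lower at 14 h than at 4 h. The median log2 fold change was 0.55 among the called rises and -1.0 among the called falls, and -0.02 over all genes tested. A change of at least 2-fold was reached by 72 of the rises and 217 of the falls, and one of at least 4-fold by 6 rises and 99 falls. The libraries of the 2 hours did not overlap for any of these 852 genes. That alone was common, since 3241 genes (20.2%) had both 14 h libraries above both 4 h libraries and 3549 (22.1%) had both below. With the library number as a block 1848 genes (11.5%) rose and 1487 (9.27%) fell, and all 852 calls were kept. These shares, and the 2.61% and 2.71% without the block, are the background for the list counts below. Leaving out any 1 of the 4 libraries left 130 to 136 rises and 134 to 222 falls, and 73 rises and 106 falls were called whichever library was left out.

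**Figure D1:**
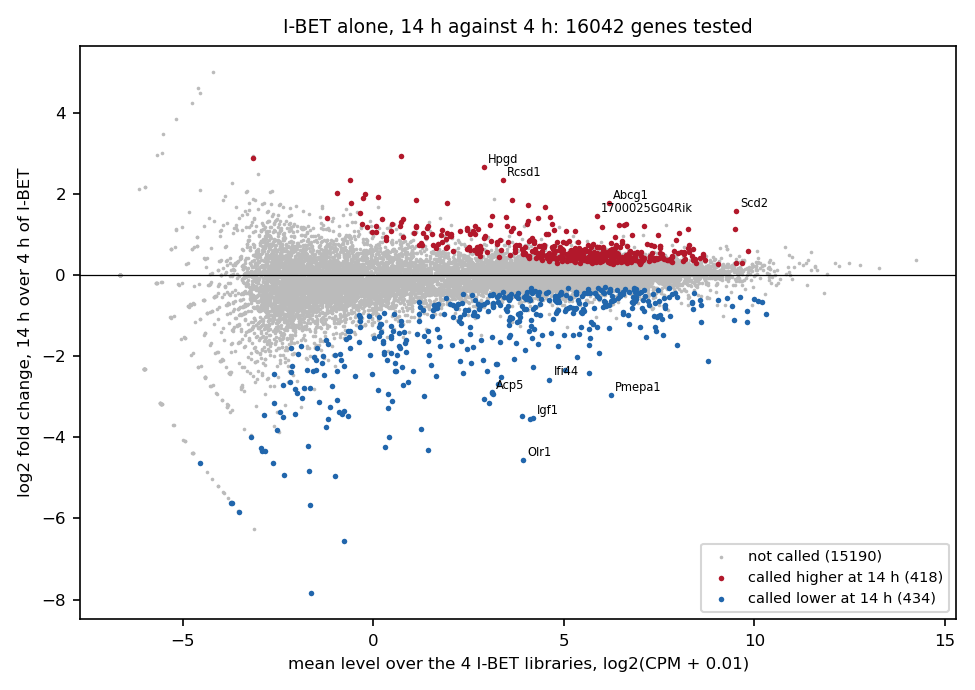
Log2 fold change of 14 h over 4 h of I-BET (vertical axis) against the mean level over the 4 libraries as log2 of CPM plus 0.01 (horizontal axis), 1 point per gene for 16042 genes, with called rises in red, called falls in blue and 10 of the most changed genes labelled. The 434 falls reach further from 0 than the 418 rises, and Olr1 at -4.57 is the lowest labelled gene.

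The called genes differed in where they stood at 4 h relative to untreated cells. Of the 418 rises, 280 had both 4 h libraries below both untreated libraries (67.0%, against 26.5% of all genes tested), and 52 had both above (12.4%, against 24.9%). By 14 h, 305 of the rises had both libraries above both untreated ones (73.0%, against 24.6% of all genes tested), and 167 were below at 4 h and above at 14 h (39.95%, against 2.14%). Of the 434 falls, 216 were below untreated cells at both hours (49.8%, against 16.4% of all genes tested), and a further 84 overlapped at 4 h and were below at 14 h (19.4%, against 6.94%). Another 134 falls were above untreated cells at 4 h, a share of 30.9% that was near the 24.9% of all genes tested, and of these 28 were still above, 41 overlapped and 65 were below at 14 h. With untreated library 1 alone, a choice made after the data were seen, 297 rises were below that library at 4 h (71.1%, against 37.4% of all genes tested) and 147 falls were above it (33.9%, against 37.6%). These are counts without a test, and the 4 h libraries of RANKL alone were not counted in this way. The 4 h and 14 h libraries entered both the call and these counts. That favours genes low at 4 h or high at 14 h among rises, and genes high at 4 h or low at 14 h among falls. Untreated cells exist at 0 h only, so that the inhibitor and the time in culture cannot be told apart in them, and in bulk RNA fewer cells of a kind and less RNA per cell cannot be told apart either.

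Between 14 and 24 h more of the falls had lower than higher libraries. Of the 434 falls, 161 (37.1%) had both 24 h libraries below both 14 h libraries and 75 (17.3%) had both above, against 15.8% and 14.5% of all genes tested. Of the 418 rises, 124 (29.7%) had both 24 h libraries above both 14 h libraries and 96 (23%) had both below. The 14 h libraries entered both the call and this count.

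The 11 genes described here from the largest falls at a mean of at least 5 CPM held secreted proteins, surface receptors and osteoclast genes. Olr1, the scavenger receptor for oxidised low-density lipoprotein, lay on chr6:129485244-129507165 of GRCm38 (minus strand) and had 1.70 and 0.681 CPM at 14 h, against 46.6 and 11.8 CPM at 4 h. It fell 23.7-fold (log2 fold change -4.57, SE 0.96, adjusted p = 0.0136). The libraries did not overlap, but the 4 h libraries themselves differed widely, and the call ended without 14 h library 1 (adjusted p = 0.077), 14 h library 2 (0.143) or 4 h library 1 (0.113).

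Igf1, a growth factor that macrophages secrete (chr10:87858265-87937042, plus strand), had 3.12 and 2.66 CPM at 14 h, against 37.5 and 29.2 CPM at 4 h. Its fall of 11.5-fold had a smaller error than that of Olr1 (log2 fold change -3.52, SE 0.24, adjusted p = 3.57e-06), and each of its 4 h libraries was also below both untreated libraries, at 49.6 and 49.4 CPM.

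Among other secreted proteins, Angptl2, an angiopoietin-like factor, had 3.13 and 1.70 CPM at 14 h, against 36.3 and 18.1 CPM at 4 h (log2 fold change -3.47, SE 0.42, adjusted p = 0.00048). Olfml3, a secreted olfactomedin-like protein, had 2.31 and 1.68 CPM at 14 h, against 19.03 and 11.89 CPM at 4 h (log2 fold change -2.94, adjusted p = 1.64e-05). Both were already lower at 4 h than in untreated cells, which held 83.2 and 54.3 CPM of Angptl2 and 44.6 and 37.2 CPM of Olfml3. Pmepa1, a membrane protein that restrains TGF-beta signalling, behaved otherwise at the early hour. It had 22.1 and 11.7 CPM at 14 h, against 170 and 96.0 CPM at 4 h (log2 fold change -2.97, SE 0.40, adjusted p = 0.000798), and its 4 h libraries overlapped the untreated ones at 114 and 81.5 CPM.

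Kirrel3, an adhesion molecule of the immunoglobulin superfamily, had 1.89 and 1.29 CPM at 14 h, against 15.3 and 11.5 CPM at 4 h, and fell 8.32-fold (log2 fold change -3.06, SE 0.22, adjusted p = 4.89e-06). Clec4a2, an inhibitory C-type lectin receptor of myeloid cells, had 2.65 and 2.52 CPM at 14 h, against 20.8 and 12.6 CPM at 4 h (log2 fold change -2.69, adjusted p = 0.00023). Tmem26, a transmembrane protein, had 2.76 and 1.29 CPM at 14 h, against 20.2 and 10.6 CPM at 4 h (log2 fold change -2.89, adjusted p = 0.00095). In all 11 genes the 14 h mean lay below the untreated mean and the 24 h mean below the 14 h mean. The 14 h libraries also chose these genes, which favours low values at 14 h. Both 24 h libraries were below both 14 h libraries in 8 of the 11, and both 4 h libraries were below both untreated ones in 7 of the 11.

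**Figure D2:**
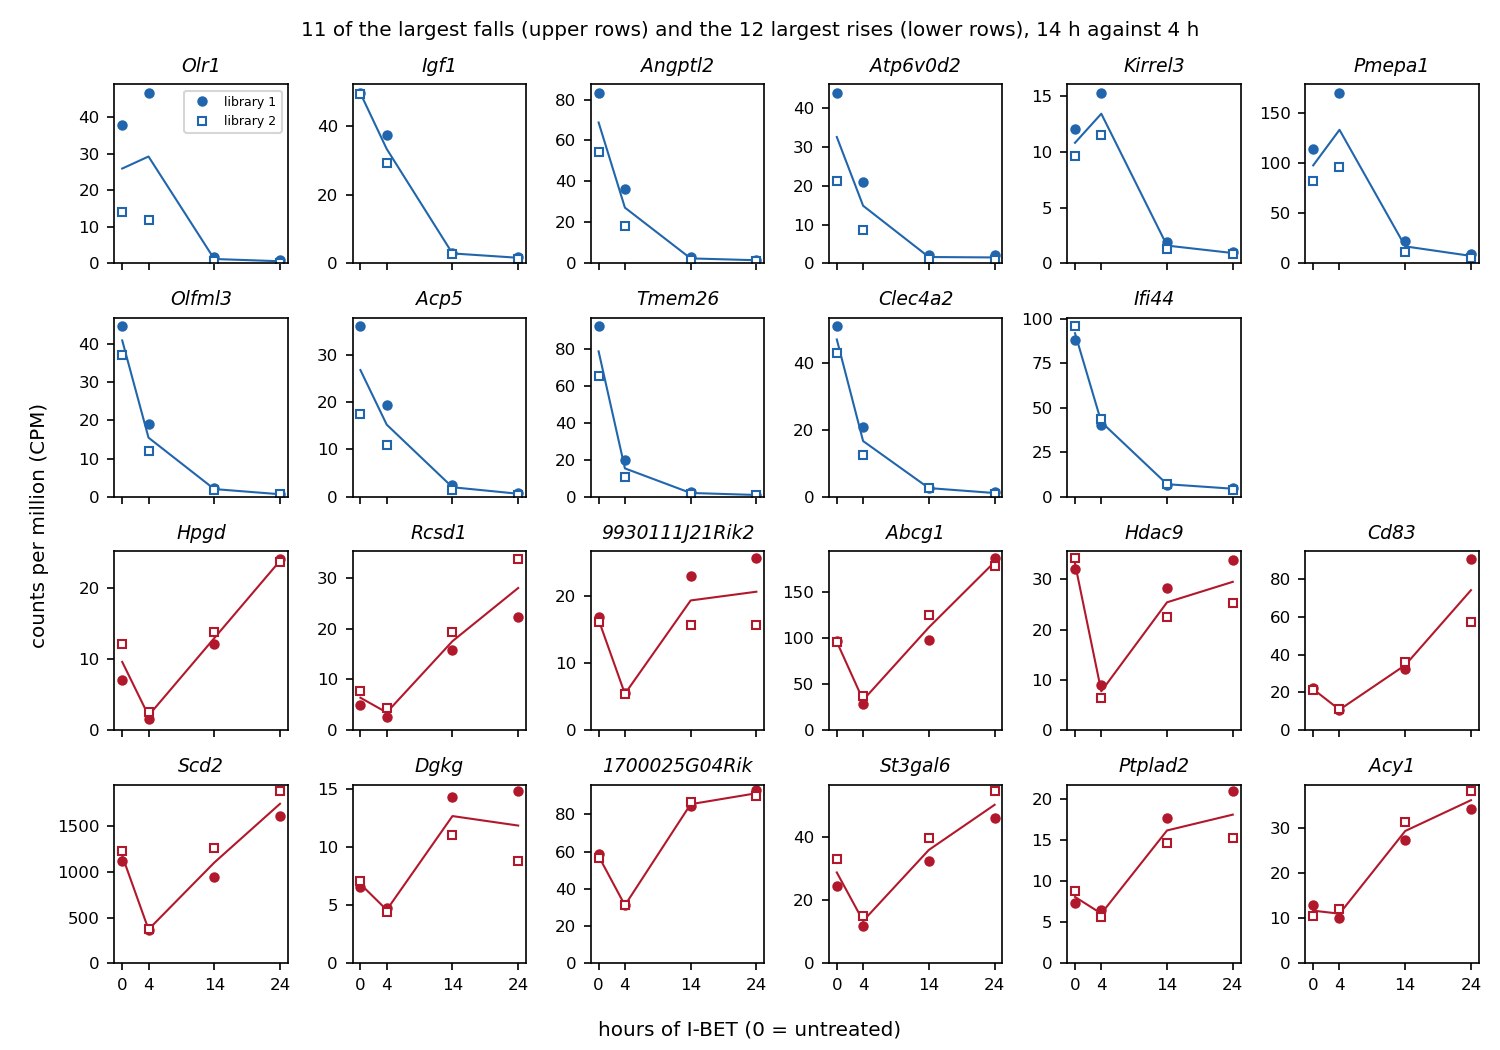
Level in CPM (vertical axes, from 0) against hours of I-BET (horizontal axes, with 0 h untreated) for 11 of the largest falls in the upper 2 rows and the 12 largest rises in the lower 2 rows. Filled circles are library 1, open squares library 2, and lines join the group means. In 11 of the 12 rises both 4 h libraries lie below both untreated libraries, and in the falls the 14 h libraries lie close to the axis, as for Igf1 at 3.12 and 2.66 CPM.

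Some of these falls belonged to the osteoclast or interferon lists. The osteoclast list holds the resorption enzymes, the proton pump subunit and the fusion and signalling genes that RANKL induces, and the line expresses some of them without RANKL. Of its 21 tested members 4 were called lower and 0 higher, with a median log2 fold change of -0.69. With the block 10 were lower, and leaving out 14 h library 1, 14 h library 2 or 4 h library 1 left 2 and leaving out 4 h library 2 left 3. Acp5, the tartrate-resistant acid phosphatase, had 2.57 and 1.43 CPM at 14 h, against 19.5 and 11.0 CPM at 4 h, and fell 7.48-fold (log2 fold change -2.90, SE 0.46, adjusted p = 0.00241). Ctsk, the collagen-degrading protease cathepsin K, had 4.505 and 5.11 CPM at 14 h, against 14.8 and 15.5 CPM at 4 h (log2 fold change -1.66, SE 0.17, adjusted p = 0.000133).

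Atp6v0d2, the osteoclast form of a proton pump subunit, had 2.21 and 1.07 CPM at 14 h, against 21.02 and 8.72 CPM at 4 h (log2 fold change -3.15, SE 0.69, adjusted p = 0.0166). Its call ended without 14 h library 1 (adjusted p = 0.0722), 14 h library 2 (0.162) or 4 h library 1 (0.135). In Olr1 and Atp6v0d2 alike, library 1 lay above library 2 at each hour. The fits without 1 library leave this pairing out. In edgeR with the block and all libraries, the SE of Atp6v0d2 was 0.16 and its adjusted p 3.1e-10. Jdp2, an AP-1 family factor, was also called (log2 fold change -0.69, adjusted p = 0.0429), and its call ended without any 1 of the 4 libraries (adjusted p between 0.114 and 0.256).

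The receptor and the master regulator of the pathway were not called without the block, and were called with it. Tnfrsf11a, the receptor of RANKL, had 121 and 68.5 CPM at 14 h, against 198 and 138 CPM at 4 h (log2 fold change -0.82, adjusted p = 0.293, and 5.7e-06 with the block). Nfatc1, the transcription factor that directs osteoclast differentiation, had 134 and 95.4 CPM at 14 h, against 258 and 151 CPM at 4 h (log2 fold change -0.83, adjusted p = 0.259, and 0.0002 with the block). The libraries of the 2 hours did not overlap for either gene, and library 1 was above library 2 at each hour. Ocstamp, a fusion protein, had 1.17 and 0.749 CPM at 14 h, against 2.16 and 2.15 CPM at 4 h (adjusted p = 0.0562, and 0.014 with the block), whereas its partner Dcstamp, with 2.91 and 1.93 CPM against 3.31 and 3.42 CPM, was not called with or without the block (adjusted p = 0.54 without it). Mmp9, a gelatinase, had 3 counts over both libraries at each hour, too few to show a change.

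The interferon-stimulated genes were the list with the largest share of calls. They encode antiviral enzymes and sensors that are induced by interferons through STAT and IRF factors, and macrophages keep a low level of them without infection. Of 40 tested members 17 (42.5%) were called lower and 1 higher, with a median log2 fold change of -1.02. With the block 26 were lower and 1 higher. The number called lower was 6 without 14 h library 1, 6 without 14 h library 2, 9 without 4 h library 1 and 8 without 4 h library 2, and the median stayed between -1.11 and -0.93. Ifi44, an interferon-induced protein on chr3:151730922-151749960 (minus strand), had 6.80 and 7.27 CPM at 14 h, against 40.4 and 43.6 CPM at 4 h, and fell 5.97-fold (log2 fold change -2.58, SE 0.27, adjusted p = 0.000138).

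Oas2, a sensor of double-stranded RNA, had 6.32 and 7.36 CPM at 14 h, against 21.1 and 27.8 CPM at 4 h (log2 fold change -1.84, SE 0.18, adjusted p = 8.63e-05). Zbp1, a sensor of left-handed nucleic acid, had 0.126 and 0.0681 CPM at 14 h, against 1.18 and 0.929 CPM at 4 h (log2 fold change -3.35, adjusted p = 0.000668). Xaf1, an interferon-induced partner of the apoptosis inhibitor XIAP, had 0.630 and 0.818 CPM at 14 h, against 2.22 and 2.79 CPM at 4 h (log2 fold change -1.80, adjusted p = 0.002). All of these were also lower at 4 h than in untreated cells, where Ifi44 stood at 87.9 and 96.0 CPM and Oas2 at 55.8 and 55.2 CPM. The 1 member that rose was Ifi203, with 19.8 and 15.7 CPM at 14 h, against 12.1 and 9.02 CPM at 4 h (log2 fold change 0.75, adjusted p = 0.0462). That call ended without any 1 of the 4 libraries (adjusted p between 0.0613 and 0.324), and Ifi203 belongs to a cluster of near-identical genes whose reads can be split between copies, as do the Oas and Gbp genes.

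Promoter windows of some called members are shown because many members of the list, called or not, carry the letters of the interferon-stimulated response element. The letters were searched on both strands as GAAA and GAAA with 2 bases of any kind between them. Of 30 tested members with a window in the RefSeq table (GRCm38.p6, 250 bases before to 50 after the start), 19 held a match (63.3%), against 3.99% of 27025 genes in that table. That share covers called and uncalled members alike and does not tie the motif to the fall. The windows below belong to the 4 called members with the lowest p that held a match, with the match in capitals and read 5′ to 3′ on the gene's strand. Overlapping matches form 1 longer run of capitals, and a run that begins with TTTC is a match on the other strand.
Rsad2, chr12:26456403-26456702, minus strand: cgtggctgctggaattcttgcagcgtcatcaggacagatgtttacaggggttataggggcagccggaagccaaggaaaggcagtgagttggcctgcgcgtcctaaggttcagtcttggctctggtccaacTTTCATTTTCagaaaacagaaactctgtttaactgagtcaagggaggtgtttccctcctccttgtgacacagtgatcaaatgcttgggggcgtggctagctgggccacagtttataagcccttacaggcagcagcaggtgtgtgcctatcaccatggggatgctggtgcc
Oas3, chr5:120777610-120777909, minus strand: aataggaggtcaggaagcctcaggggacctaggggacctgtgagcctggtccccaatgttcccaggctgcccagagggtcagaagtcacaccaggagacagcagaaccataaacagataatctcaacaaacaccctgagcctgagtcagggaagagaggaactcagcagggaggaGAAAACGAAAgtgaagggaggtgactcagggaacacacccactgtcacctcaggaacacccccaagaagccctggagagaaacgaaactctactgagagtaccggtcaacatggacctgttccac
Oas1a, chr5:120907476-120907775, minus strand: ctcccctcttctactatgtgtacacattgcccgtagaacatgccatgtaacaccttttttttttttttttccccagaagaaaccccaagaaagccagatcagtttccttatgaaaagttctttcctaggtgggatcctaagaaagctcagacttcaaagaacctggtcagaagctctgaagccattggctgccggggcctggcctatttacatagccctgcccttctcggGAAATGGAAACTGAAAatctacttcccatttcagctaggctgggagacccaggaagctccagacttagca
Gbp3, chr3:142559794-142560093, plus strand: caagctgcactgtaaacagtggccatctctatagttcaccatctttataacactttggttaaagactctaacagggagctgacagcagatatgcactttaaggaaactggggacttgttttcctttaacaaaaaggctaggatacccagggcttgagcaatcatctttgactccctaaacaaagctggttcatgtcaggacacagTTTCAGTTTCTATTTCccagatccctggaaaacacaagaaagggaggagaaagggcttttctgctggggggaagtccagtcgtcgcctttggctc

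The match began 120 bases before the start in Rsad2, 75 in Oas3, 20 in Oas1a and 45 in Gbp3. A second window of Gbp3, chr3:142560106-142560405, held no match. No window was found for Oas2, Zbp1 or Rtp4. Rsad2, the antiviral enzyme viperin, had 0.567 and 0.886 CPM at 14 h, against 2.14 and 2.70 CPM at 4 h (log2 fold change -1.75, adjusted p = 0.00495, and 0.0812 without 14 h library 1). Oas3, a further sensor of double-stranded RNA, had 11.96 and 9.38 CPM at 14 h, against 25.5 and 28.2 CPM at 4 h (log2 fold change -1.33, adjusted p = 0.00685). Its adjusted p was 0.0982 without 14 h library 2 and 0.0561 without 4 h library 2. The windows of Ifi44 and Xaf1, which fell more firmly, held no match to these letters. Nor did those of Oasl1, Oasl2, Cmpk2 and Irf7, which were also called lower. A match is a description of the letters and not of binding.

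Over all calls, the same motif stood in the windows of 8.09% of the genes called lower and 4.70% of those called higher. The AP-1 motif TGANTCA, the binding letters of FOS and JUN dimers, stood in 15.6% of the genes called lower, 6.27% of those called higher and 8.97% of all genes in the table. The E-box CACGTG, which MYC and other factors bind, stood in 7.51% of the lower, 13.2% of the higher and 8.09% of all genes. The share of windows with the PU.1 letters GAGGAAGT was 3.47% in the lower, 3.45% in the higher and 3.69% in all genes. No test was made of these shares.

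Macrophage identity genes encode lineage receptors and pattern recognition receptors, and some of them were called lower. Of 37 tested members 8 were called lower and 0 higher, with a median of -0.45, and with the block 15 were lower and 1 higher. Without 14 h library 2, 5 were lower. The strongest calls were C-type lectin receptors and an integrin. Clec4d had 26.9 and 23.9 CPM at 14 h, against 105 and 87.0 CPM at 4 h (log2 fold change -1.92, SE 0.15, adjusted p = 1.44e-05). Its neighbour Clec4e, the receptor Mincle for mycobacterial glycolipid, had 33.5 and 32.2 CPM at 14 h, against 77.8 and 72.9 CPM at 4 h (log2 fold change -1.20, adjusted p = 0.000774). Clec4n, which encodes Dectin-2, was near its end at 14 h with 0.205 and 0.0908 CPM, against 3.35 and 1.63 CPM at 4 h (log2 fold change -3.98, SE 0.56, adjusted p = 0.00108). These lectin genes are close relatives in 1 cluster, so that some reads may be shared.

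Itgam, the CD11b chain of the macrophage integrin, had 11.2 and 11.6 CPM at 14 h, against 28.8 and 34.3 CPM at 4 h (log2 fold change -1.47, SE 0.18, adjusted p = 0.000501). Msr1, Cd36, Fcgr2b and Lyz1 were the other 4 called members. Irf8, a lineage factor, had 68.3 and 87.4 CPM at 14 h, against 59.7 and 80.8 CPM at 4 h (log2 fold change 0.15, adjusted p = 0.898). Csf1r, the receptor of the macrophage growth factor, had 1910 and 2022 CPM at 14 h, against 1920 and 2294 CPM at 4 h (log2 fold change -0.10, adjusted p = 0.839). Neither passed the test with the block, and the libraries of the 2 hours overlapped for both.

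Genes of the cytoskeleton and of adhesion held calls over a wide range of levels. Of 32 tested members of this list 10 were called lower (31.2%) and 1 higher, with a median of -0.33, and with the block 14 were lower and 2 higher. Without 14 h library 1 or without 4 h library 1, 6 were called lower, and without 14 h library 2, 5 were. Vim, the intermediate filament protein vimentin, had 870 and 851 CPM at 14 h, against 1680 and 1650 CPM at 4 h (log2 fold change -0.95, SE 0.09, adjusted p = 4.36e-05). Itga5, the fibronectin receptor chain, had 107 and 98.4 CPM at 14 h, against 291 and 281 CPM at 4 h (log2 fold change -1.48, SE 0.14, adjusted p = 4.97e-05). Actg1, cytoplasmic gamma actin, had 293 and 290 CPM at 14 h, against 494 and 476 CPM at 4 h (log2 fold change -0.73, adjusted p = 0.00193). Further members called lower were Itgam, Flna, Itgb7, Fscn1, Cd9, Itgax and Itgb2. The 1 that rose was Rcsd1, described with the rises. Over the same hours the list median was -0.38 in RANKL with I-BET and -0.37 in RANKL alone, without the inhibitor. The course was called higher in I-BET alone than in RANKL alone for 5 members and lower for 2. Actg1 also fell in RANKL alone (log2 fold change -1.12).

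Chemokines and inflammatory cytokines held 5 falls and 0 rises among 25 tested members, with a median of -0.52. The number lower was 3 without 14 h library 1, without 14 h library 2 or without 4 h library 1. Il1rn, the antagonist of the interleukin 1 receptor (chr2:24336853-24351494, plus strand), had 2.76 and 2.36 CPM at 14 h, against 14.4 and 11.9 CPM at 4 h, and fell 5.12-fold (log2 fold change -2.35, SE 0.15, adjusted p = 3.57e-06). Cxcl14 had 18.5 and 13.5 CPM at 14 h, against 95.0 and 75.9 CPM at 4 h (log2 fold change -2.41, SE 0.28, adjusted p = 0.000347), and Ccl9 had 61.7 and 64.0 CPM, against 153 and 136 CPM (log2 fold change -1.20, adjusted p = 0.00422). The 2 genes differed before that. Cxcl14 at 4 h overlapped its untreated level of 103 and 80.8 CPM, while Ccl9 at 4 h was below its untreated level of 297 and 289 CPM. Cxcl16 and Cxcl10 were also called lower. In RANKL alone, without the inhibitor, the list median over the same hours was -1.24. The course was called higher in I-BET alone than in RANKL alone for 4 members and lower for 2, of which Il1rn and Ccl9 were those lower.

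Immediate early genes, which signalling switches on without new protein, held 3 falls and 0 rises among 30 tested members (10 falls and 3 rises with the block, and 1 fall without 14 h library 1). Fos, an AP-1 subunit, had 32.1 and 20.3 CPM at 14 h, against 78.0 and 77.2 CPM at 4 h (log2 fold change -1.56, SE 0.29, adjusted p = 0.00587, and 0.0806 without 14 h library 2). Fosl1, a second AP-1 subunit, had 1.51 and 1.59 CPM at 14 h, against 6.003 and 4.39 CPM at 4 h (log2 fold change -1.75, adjusted p = 0.00413, and 0.0505 without 14 h library 1). Dusp1, a MAP kinase phosphatase, fell by 0.84 on the log2 scale (adjusted p = 0.00462), and its call ended without 14 h library 1 (adjusted p = 0.0755) or without 4 h library 2 (0.0572).

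Some oxidative stress genes stood above untreated cells at 4 h and fell after it. Of 26 tested NRF2 targets 3 were called lower and 1 higher (9 lower and 2 higher with the block), with a median of -0.01. Srxn1, which repairs peroxiredoxins, had 74.0 and 62.0 CPM at 14 h, against 149 and 123 CPM at 4 h (log2 fold change -1.0, SE 0.14, adjusted p = 0.00108), and its untreated libraries held 83.8 and 73.0 CPM. Hmox1, heme oxygenase 1, showed the same order, with 70.8 and 58.9 CPM at 14 h, against 135 and 111 CPM at 4 h (log2 fold change -0.92, adjusted p = 0.00732, and 0.102 without 14 h library 2 and 0.0823 without 4 h library 1). Slc7a11, the cystine importer that belongs to both the NRF2 and the ATF4 list, went below its untreated 41.3 and 37.1 CPM, with 10.4 and 7.65 CPM at 14 h, against 31.3 and 22.1 CPM at 4 h (log2 fold change -1.56, adjusted p = 0.0024). Of 29 tested ATF4 and amino acid supply genes 3 were called lower and 0 higher (12 and 3 with the block), and the number lower was 1 without any 1 of the 4 libraries.

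The genes that commonly mark exposure to BET inhibitors were highest at 4 h. Brd2, a BET protein itself (chr17:34112023-34122634, minus strand), had 315 and 312 CPM in untreated cells, 759 and 739 CPM at 4 h, 512 and 493 CPM at 14 h and 549 and 554 CPM at 24 h of I-BET. Its fall between 4 and 14 h (log2 fold change -0.58, SE 0.08, adjusted p = 0.00097) left both 14 h libraries above both untreated ones. Hexim1, the P-TEFb inhibitor, had 92.7 and 116 CPM at 14 h, against 129 and 170 CPM at 4 h (log2 fold change -0.52, SE 0.20, adjusted p = 0.176, and 3.9e-05 with the block), and 57.9 and 70.3 CPM in untreated cells. Brd3 showed no such course, with 107 and 91.1 CPM at 14 h, against 103 and 90.5 CPM at 4 h (adjusted p = 0.959). Brd2 was the only 1 of 20 tested members of the BET and P-TEFb list that was called, with 5 lower and 2 higher under the block. Over all genes tested 5.31% were called, and 20.8% under the block.

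Histone genes behaved likewise in single members. Hist1h2bc, a histone H2B gene on chr13:23684199-23692908, had 25.7 and 24.8 CPM at 14 h, against 64.4 and 59.2 CPM at 4 h (log2 fold change -1.29, SE 0.17, adjusted p = 0.000774), while untreated cells held 6.21 and 8.57 CPM. Hist1h1c, a linker histone gene, had 80.2 and 115 CPM at 14 h, against 219 and 258 CPM at 4 h (log2 fold change -1.29, SE 0.20, adjusted p = 0.00226), while untreated cells held 31.1 and 43.7 CPM. Hist2h2be rose, with 12.5 and 11.97 CPM at 14 h, against 7.05 and 8.93 CPM at 4 h (log2 fold change 0.61, adjusted p = 0.00895). That call ended without 14 h library 1 (adjusted p = 0.0779), 14 h library 2 (0.0534) or 4 h library 1 (0.115). Of 44 tested clustered histone genes these 3 were called, which is near the 5.31% called over all genes tested. Histone genes are near-identical copies, many of their transcripts lack the poly(A) tail that the library kit selects, and their values are uncertain.

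Myc, whose loss is a well-known early response to BET inhibitors in many cells, was lower at both hours of I-BET than in untreated cells, a description without a test. It had 0.158 and 0.182 CPM at 14 h, against 0.897 and 0.702 CPM at 4 h (log2 fold change -2.24, SE 0.62, adjusted p = 0.0542, and 0.022 with the block), and 17.6 and 8.32 CPM in untreated cells. No member of the MYC and MAX list, of 35 ribosome biogenesis genes or of 80 cytosolic ribosomal protein genes was called in edgeR without the block, and with it 5, 4 and 3 were. Over all genes tested 20.8% were called with the block. The medians of these lists were 0.13, 0.00 and 0.07.

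**Figure D3:**
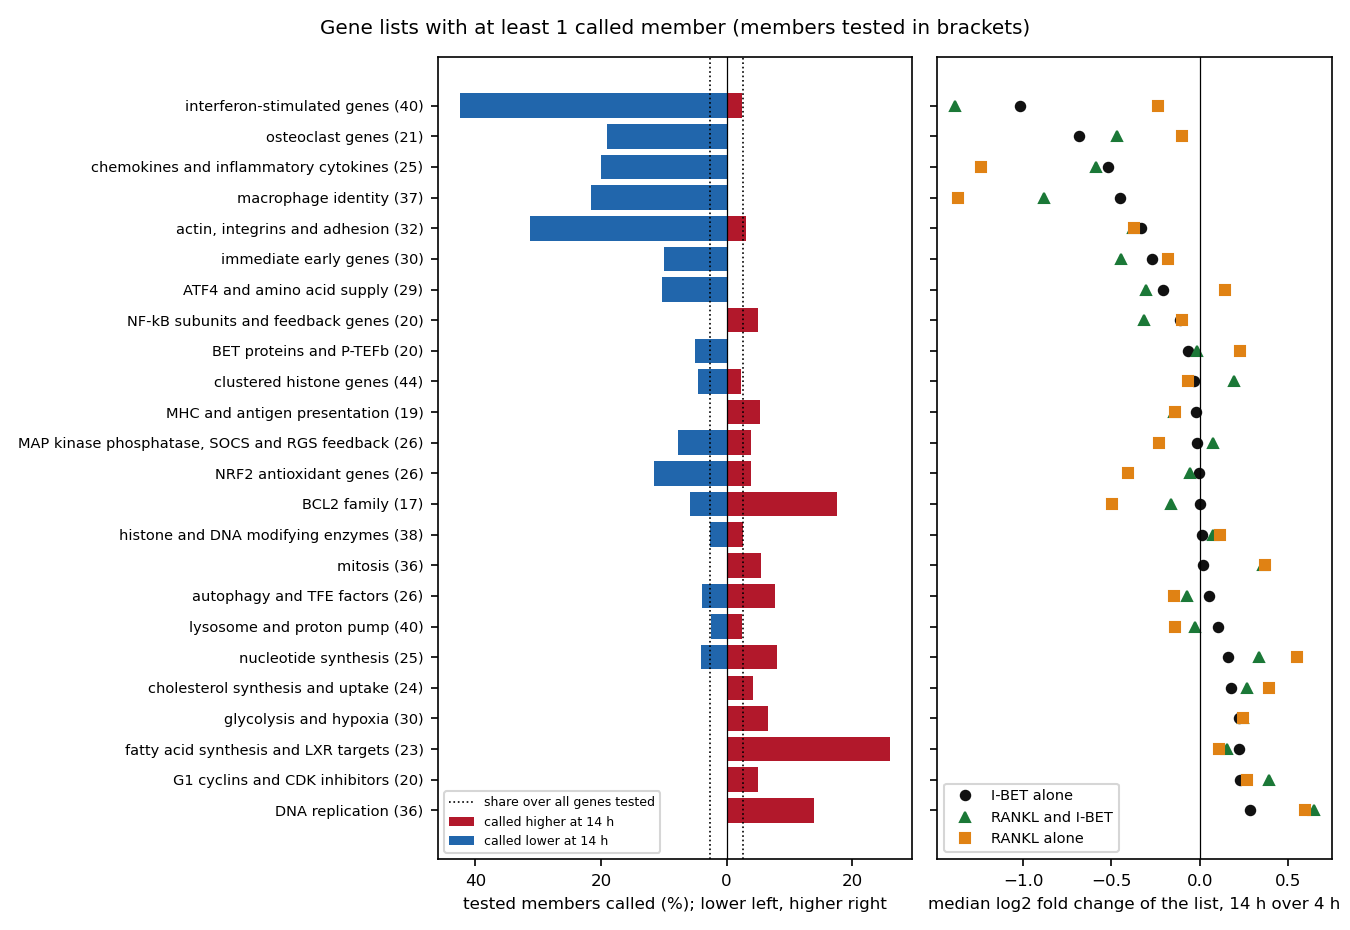
Left, the share of tested members called higher (red, to the right of 0) and lower (blue, to the left) at 14 h of I-BET relative to 4 h, for the 24 gene lists with at least 1 call, with dotted lines at the 2.61% and 2.71% of all genes. Right, the median log2 fold change of 14 h over 4 h in I-BET alone (black circles), RANKL with I-BET (green triangles) and RANKL alone (orange squares). Interferon-stimulated genes have the largest share of falls, 17 of 40, and fatty acid and LXR genes the largest share of rises, 6 of 23.

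The rises were smaller and held enzymes of lipid metabolism. Of 23 tested genes of fatty acid synthesis and LXR targets, which the oxysterol receptors LXR induce, 6 were called higher (26.1%) and 0 lower, with a median of 0.22. With the block 9 were higher and 2 lower. The number higher was 3 without 14 h library 2, without 4 h library 1 or without 4 h library 2. Scd2, a stearoyl-CoA desaturase that makes monounsaturated fatty acids (chr19:44293674-44306864, plus strand), had 943 and 1262 CPM at 14 h, against 365 and 378 CPM at 4 h, and rose 2.97-fold (log2 fold change 1.57, SE 0.21, adjusted p = 0.000774). Untreated cells held 1125 and 1229 CPM. The 14 h libraries overlapped these, while both 4 h libraries were below them.

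Abcg1, an exporter of cholesterol (chr17:31057675-31117988, plus strand), had 98.0 and 126 CPM at 14 h, against 28.4 and 37.0 CPM at 4 h (log2 fold change 1.77, SE 0.29, adjusted p = 0.0028, and 0.0504 without 4 h library 1), and 96.5 and 95.8 CPM in untreated cells. Elovl5, a fatty acid elongase, had 174 and 179 CPM at 14 h, against 131 and 125 CPM at 4 h (log2 fold change 0.47, SE 0.08, adjusted p = 0.00353). Elovl6 rose by 0.60 on the log2 scale (adjusted p = 0.00543, and 0.0656 without 14 h library 2 and 0.0761 without 4 h library 2), and Acsl3 and Acaca were the other members called. RANKL alone gave low 4 h values of Scd2 and Abcg1 too. With RANKL alone Scd2 had 282 and 298 CPM at 4 h and 871 and 1343 CPM at 14 h, and Abcg1 had 24.3 and 40.4 CPM at 4 h and 71.0 and 123 CPM at 14 h.

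Hpgd, which inactivates prostaglandins (chr8:56294585-56321043, plus strand), rose most among genes of at least 5 CPM. It had 12.03 and 13.8 CPM at 14 h, against 1.54 and 2.54 CPM at 4 h, a 6.34-fold difference (log2 fold change 2.66, SE 0.55, adjusted p = 0.0127). The call ended without 14 h library 2 (adjusted p = 0.0656), 4 h library 1 (0.133) or 4 h library 2 (0.0632). Rcsd1, which binds the actin capping protein, had 15.8 and 19.4 CPM at 14 h, against 2.63 and 4.33 CPM at 4 h (log2 fold change 2.34, SE 0.38, adjusted p = 0.0029, and 0.0531 without 4 h library 1). Both went on to higher levels at 24 h, with 24.0 and 23.6 CPM of Hpgd and 22.4 and 33.8 CPM of Rcsd1.

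Cd83, a surface molecule of activated antigen-presenting cells (chr13:43784775-43803132, plus strand), had 32.6 and 36.4 CPM at 14 h, against 10.7 and 10.9 CPM at 4 h, and rose 3.19-fold (log2 fold change 1.67, SE 0.21, adjusted p = 0.000501). At 24 h it had 90.9 and 57.5 CPM, above its untreated 22.3 and 21.1 CPM. Hdac9, a class IIa histone deacetylase, had 28.3 and 22.6 CPM at 14 h, against 9.06 and 6.39 CPM at 4 h (log2 fold change 1.72, SE 0.21, adjusted p = 0.00048), with both 14 h libraries below its untreated 32.0 and 34.2 CPM. Dgkg, a diacylglycerol kinase, had 14.3 and 11.0 CPM at 14 h, against 4.74 and 4.44 CPM at 4 h (log2 fold change 1.46, adjusted p = 0.01). Its call ended without 14 h library 1 (adjusted p = 0.0897), 4 h library 1 (0.0746) or 4 h library 2 (0.0935).

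St3gal6, a sialyltransferase, had 32.3 and 39.5 CPM at 14 h, against 11.8 and 15.1 CPM at 4 h (log2 fold change 1.42, SE 0.33, adjusted p = 0.0227), a call that ended without any 1 of the 4 libraries (adjusted p between 0.064 and 0.184). Ptplad2, a dehydratase of fatty acid elongation, had 17.7 and 14.6 CPM at 14 h, against 6.43 and 5.66 CPM at 4 h (log2 fold change 1.42, adjusted p = 0.00133). Acy1, an aminoacylase, had 27.2 and 31.3 CPM at 14 h, against 10.02 and 11.96 CPM at 4 h (log2 fold change 1.41, SE 0.14, adjusted p = 0.000119). Acy1 was the 1 of these 12 rises whose 4 h libraries were not both below both untreated ones.

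The 2 remaining genes of the 12 are known by locus names. 1700025G04Rik had 84.4 and 86.3 CPM at 14 h, against 31.2 and 31.2 CPM at 4 h, with the smallest SE of the 12 (log2 fold change 1.45, SE 0.10, adjusted p = 3.57e-06). 9930111J21Rik2 had 22.9 and 15.7 CPM at 14 h, against 5.45 and 5.35 CPM at 4 h (log2 fold change 1.84, SE 0.24, adjusted p = 0.000668), and its name marks it as 1 of a pair of related loci that may share reads. Of the 12 rises, 10 had a 14 h mean above the untreated mean and 11 had a 24 h mean above the 14 h mean. The 4 h and 14 h libraries also chose these genes, which favours low values at 4 h and high values at 14 h.

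DNA replication genes held 5 small rises, and the other members did not pass the test without the block. Of 36 tested members 5 were called higher and 0 lower, the median log2 fold change was 0.29, and all 36 fold changes were positive, between 0.03 and 0.80 on the log2 scale. With the block 24 were called higher. Without 14 h library 2, without 4 h library 1 or without 4 h library 2 the number was 1 each. Dscc1, a subunit of a clamp loader of replication forks, had 14.4 and 14.8 CPM at 14 h, against 8.52 and 8.25 CPM at 4 h (log2 fold change 0.80, SE 0.12, adjusted p = 0.00181), and 12.6 and 13.6 CPM in untreated cells. Chaf1b, Prim1, Mcm7 and Mcm10 were the others called, each of which lost its call in at least 3 of the 4 fits without a library. Of 36 mitosis genes 2 were called higher (Bub1 and Bub1b) and 0 lower, with a median of 0.02, and with the block 6 were higher and 2 lower. Of the 4 fits without a library, Bub1 was called in 1 and Bub1b in 0.

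Genes that control cell death were split. Of 17 tested BCL2 family members 3 were called higher and 1 lower. The pro-apoptotic Bid had 90.9 and 94.2 CPM at 14 h, against 64.0 and 69.7 CPM at 4 h (log2 fold change 0.47, adjusted p = 0.0125), and Bnip3l, a mitophagy receptor, had 95.1 and 95.4 CPM, against 60.5 and 50.8 CPM (log2 fold change 0.78, adjusted p = 0.0137). Bmf, a BH3-only protein, rose by 1.24 on the log2 scale (adjusted p = 0.0347), while Bok, with 0.362 and 0.204 CPM at 14 h, against 1.004 and 1.02 CPM at 4 h, fell (log2 fold change -1.79, adjusted p = 0.00922). Of these calls, that of Bmf ended without any 1 of the 4 libraries (adjusted p between 0.103 and 0.243). The others ended without 3 of the 4, with Bid kept only without 4 h library 2 (adjusted p 0.0625 to 0.124 in the other fits), Bnip3l only without 4 h library 1 (0.0773 to 0.154) and Bok only without 14 h library 1 (0.0535 to 0.116).

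The course with RANKL present shared no library with the comparison above. Both were tested in the same fit with a shared estimate of each gene's spread, so the calls are not fully independent. In cells with RANKL and I-BET, 1508 genes (9.4%) were called, 739 (4.61%) higher and 769 (4.79%) lower at 14 h than at 4 h. Of the 418 rises of I-BET alone, 282 (67.5%, and 38.2% of the 739) were also called higher there, and of the 434 falls 316 (72.8%, and 41.1% of the 769) were also called lower. Opposite calls were made for 2 genes. Leaving out 1 library of that comparison left 277 to 380 rises and 316 to 445 falls in it. All 11 described falls of I-BET alone were called lower with RANKL and I-BET, and 6 of the 12 largest rises were called higher (10 with the block). The medians of the interferon-stimulated list were -1.02 in I-BET alone and -1.39 in RANKL with I-BET, those of the osteoclast list -0.69 and -0.47, and those of DNA replication 0.29 and 0.65.

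The difference between these 2 courses was itself tested as an interaction over all 16042 genes, and 3 genes (0.0187%) were called, all higher in I-BET alone, with 0 lower. The unadjusted p was under 0.05 for 646 genes, DESeq2 called 62, and with the block 101 genes (0.63%) were called higher and 90 (0.561%) lower. For most genes the data thus do not separate the courses at this spread, which does not show that they were alike. Cd83 was the first of the 3. It had 14.2 and 18.5 CPM at 14 h, against 31.7 and 29.2 CPM at 4 h, in RANKL with I-BET, opposite to its course in I-BET alone (difference of the log2 fold changes 2.57, SE 0.29, adjusted p = 0.00292).

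Kctd12, an auxiliary subunit of GABA-B receptors, was the other gene called in opposite directions. In I-BET alone it had 18.1 and 17.6 CPM at 14 h, against 12.3 and 12.8 CPM at 4 h (log2 fold change 0.51, adjusted p = 0.012), and in RANKL with I-BET 13.6 and 13.3 CPM at 14 h, against 24.1 and 22.7 CPM at 4 h (difference 1.31, SE 0.15, adjusted p = 0.00292). Its call in I-BET alone ended without any 1 of the 4 libraries (adjusted p between 0.0691 and 0.103). Tnfaip2, a gene induced by tumour necrosis factor, had 134 and 127 CPM at 14 h, against 128 and 128 CPM at 4 h, in I-BET alone, and 124 and 125 CPM at 14 h, against 362 and 362 CPM at 4 h, in RANKL with I-BET (difference 1.58, adjusted p = 0.00292). The level of Tnfaip2 at 14 h was thus close in both treatments, and the 4 h levels were far apart.

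**Figure D4:**
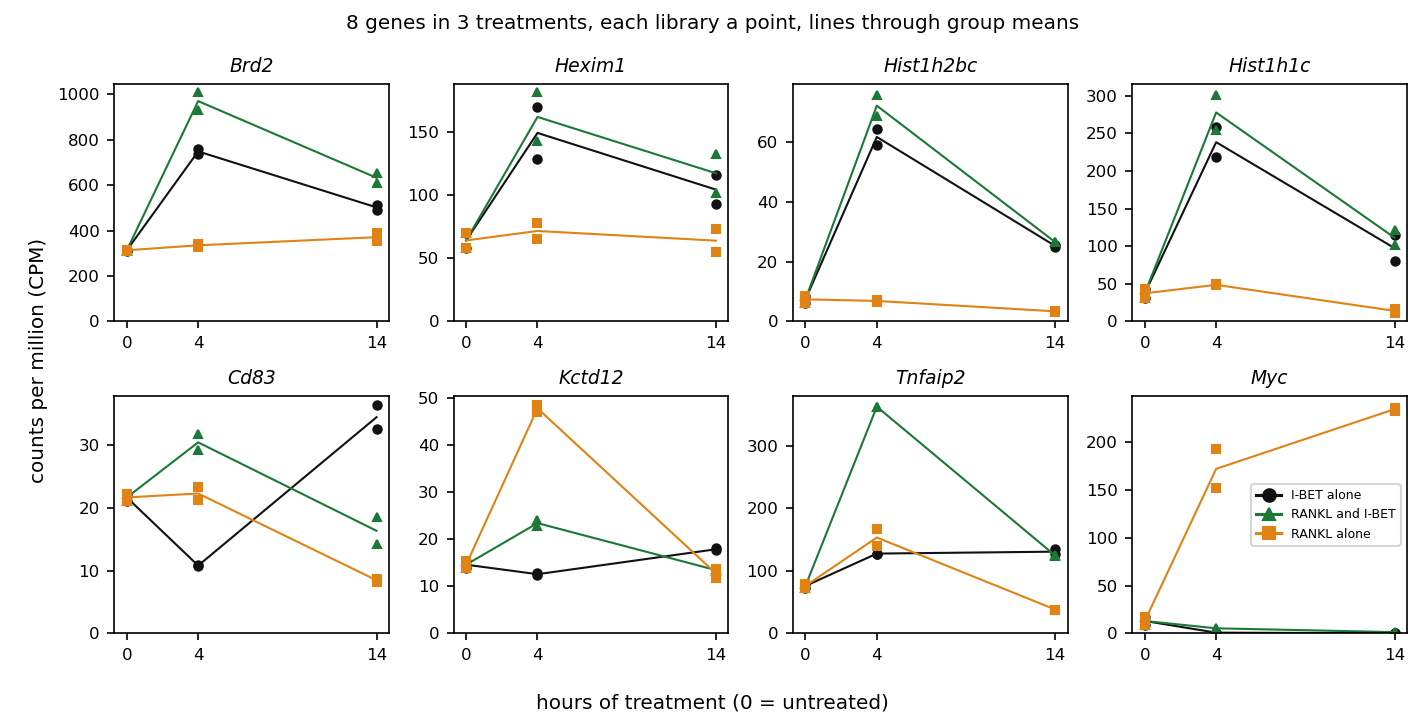
Level in CPM (vertical axes, from 0) against hours of treatment (horizontal axes, with 0 h untreated) for 8 genes, with each library a point and lines through the group means, in I-BET alone (black circles), RANKL with I-BET (green triangles) and RANKL alone (orange squares). Brd2, Hexim1 and both histone genes are highest at 4 h in both treatments with I-BET, while Cd83 is lowest at 4 h in I-BET alone, at 10.7 and 10.9 CPM.

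Against the course with RANKL alone many more genes differed. The difference of the log2 fold changes was called for 1162 genes (7.24%), higher in I-BET alone for 732 (4.56%) and lower for 430 (2.68%). With the block the numbers were 2058 (12.8%) and 2021 (12.6%), and leaving out 1 library gave 476 to 552 and 211 to 295. The difference was called lower for 6 of the 11 described falls (Atp6v0d2, Kirrel3, Acp5, Tmem26, Clec4a2 and Ifi44) and higher for 0, and with the block it was called lower for 9, with Angptl2 (adjusted p = 0.0746, and 0.00353 with the block), Pmepa1 and Olfml3 added. It was called higher for 8 of the 12 largest rises, lower for Acy1, and was not called for Scd2, Abcg1 and 1700025G04Rik, of which 1700025G04Rik was called higher with the block (adjusted p = 0.0539, and 0.00471 with it). These counts rest in part on the I-BET libraries that chose the genes.

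The called osteoclast genes were lower at 14 h than at 4 h in I-BET alone, and Acp5 was higher at 14 h in RANKL alone. Acp5 had 2.57 and 1.43 CPM at 14 h, against 19.5 and 11.0 CPM at 4 h, in I-BET alone, and 111 and 95.3 CPM at 14 h, against 34.5 and 22.6 CPM at 4 h, in RANKL alone (difference of the log2 fold changes -4.76, SE 0.62, adjusted p = 0.00039). The difference for Ctsk was -2.40 (SE 0.24, adjusted p = 5.8e-05) and that for Atp6v0d2 -4.81 (SE 0.91, adjusted p = 0.0052). Of 21 tested osteoclast genes 4 had a lower course in I-BET alone and 0 a higher one. With the block 8 were lower, with Nfatc1 and Tnfrsf11a among them, and 3 higher (Tyrobp, Trem2 and Ostm1). Bdh2, a dehydrogenase of ketone body metabolism, had the largest negative difference after Il13ra2 and Tnc among genes with a mean of at least 5 CPM. It had 0.315 and 0.182 CPM at 14 h, against 6.77 and 3.56 CPM at 4 h, in I-BET alone, and 39.2 and 37.9 CPM at 14 h, against 19.7 and 17.1 CPM at 4 h, in RANKL alone (difference -5.38, SE 0.58, adjusted p = 0.000101).

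Where counts ran out, folds are uncertain. Il13ra2, a decoy receptor for interleukin 13, had 0 counts over both 14 h libraries, against 57 over both 4 h libraries. A floor of 3 counts over the group put it 22.5-fold lower at 14 h, and the lower 95% counting limit was 17.7-fold. Tnc, the matrix protein tenascin C, had 1 count over both 14 h libraries, against 104 over both 4 h libraries, and the ratio of 4 h to 14 h was 123 with a 95% counting interval of 21.6 to 4902. In RANKL alone, Il13ra2 had 8.36 and 6.85 CPM at 14 h, against 10.5 and 14.8 CPM at 4 h, and Tnc had 14.7 and 10.6 CPM at 14 h, against 12.8 and 11.5 CPM at 4 h.

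Called macrophage genes mostly differed in the other direction. Of 37 tested members 14 had a higher course in I-BET alone than in RANKL alone and 1, Clec4n, a lower one (21 and 1 with the block), and the list medians were -0.45 in I-BET alone and -1.37 in RANKL alone. Irf8 is an example, with 68.3 and 87.4 CPM at 14 h, against 59.7 and 80.8 CPM at 4 h, in I-BET alone, and 6.59 and 10.8 CPM at 14 h, against 37.1 and 52.6 CPM at 4 h, in RANKL alone (difference 2.51, SE 0.45, adjusted p = 0.0034). The largest positive differences were those of Rnase4 (4.85), Ptgs1 (4.71), Rcsd1 (4.70) and Anxa3 (4.11), among genes with a mean of at least 5 CPM. Ptgs1, the cyclooxygenase COX-1, had 35.4 and 33.6 CPM at 14 h, against 24.0 and 25.4 CPM at 4 h, in I-BET alone, which was no call (adjusted p = 0.209, and 0.0256 with the block), and 0.578 and 1.19 CPM at 14 h, against 17.0 and 16.3 CPM at 4 h, in RANKL alone. Anxa3, an annexin, was not called in I-BET alone either (log2 fold change 0.74, adjusted p = 0.209, and 0.00218 with the block).

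Interferon-stimulated genes had a lower course in I-BET alone for 8 members, led by Oas2 (difference -2.02, SE 0.25, adjusted p = 0.000246), and a higher one for 2, Ifit2 and Ifi203. With the block 17 were lower and 4 higher. The medians were -1.02 in I-BET alone and -0.24 in RANKL alone. Growth-related lists with few or no calls in I-BET alone also held called differences. Of 35 ribosome biogenesis genes 8 had a lower course and 0 a higher one (32 and 0 with the block), with medians of 0.00 in I-BET alone and 0.46 in RANKL alone. Of 25 nucleotide synthesis genes 10 had a lower course and 0 a higher one (15 and 1 with the block), led by the mitochondrial folate enzyme Mthfd2 (difference -1.06, SE 0.15, adjusted p = 0.00056), with medians of 0.16 and 0.55. Of 36 DNA replication genes 4 had a lower course and 0 a higher one (21 and 0 with the block). Their medians were 0.29 in I-BET alone and 0.60 in RANKL alone. Myc had a lower course too (difference -2.69, SE 0.69, adjusted p = 0.03).

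**Figure D5:**
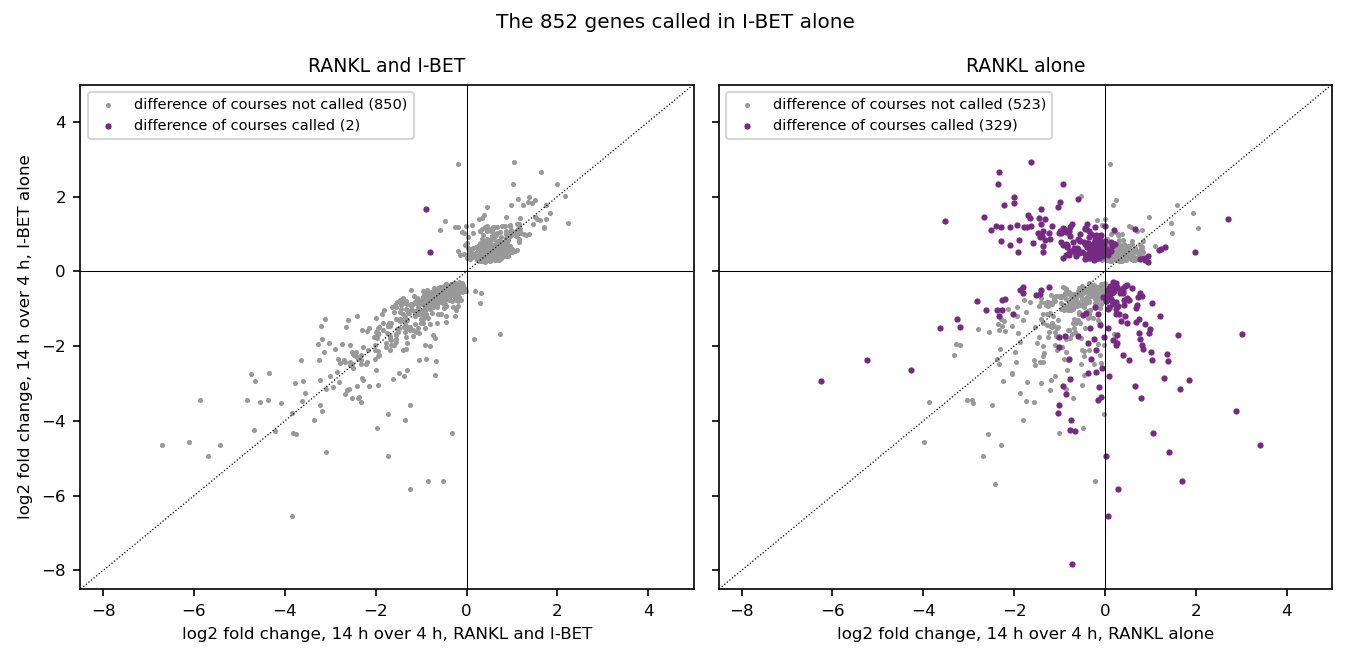
Log2 fold change of 14 h over 4 h in I-BET alone (vertical axes) against the same in RANKL with I-BET (left) and in RANKL alone (right), for the 852 genes called in I-BET alone, with the line of equal change dotted. Purple points mark genes whose difference between the 2 courses was called, 2 on the left and 329 on the right.

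The 4 h effect of I-BET in cells with RANKL was set against the later course in I-BET alone. It came from libraries that the comparison of I-BET hours did not use, though both share the estimate of each gene's spread. A lower level there can mean a smaller response to RANKL, which this comparison does not tell apart from loss under I-BET. At 4 h, 791 genes (4.93%) were higher and 1037 (6.46%) lower in RANKL with I-BET than in RANKL alone. Of the 1037 lower genes, 150 (14.5%) were called lower between 4 and 14 h of I-BET alone and 79 (7.62%) were called higher, against 2.71% and 2.61% of all genes tested. Of the 791 higher genes, 47 (5.94%) were later lower and 44 (5.56%) later higher. The early-lower genes made up 34.6% of the 434 falls and 18.9% of the 418 rises. The median later log2 fold change was -0.12 for the early-lower genes, -0.03 for the early-higher ones and -0.01 for the rest. Genes called in 1 comparison tend to have more counts, which raises the share called in any other, and these shares were not adjusted for that.

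Both kinds of later course occurred among early-lower genes. Il1rn was lower at 4 h in RANKL with I-BET than in RANKL alone, with 16.4 and 15.4 CPM against 62.0 and 76.8 CPM (log2 fold change -2.12, adjusted p = 2.3e-06). It also fell between 4 and 14 h of I-BET alone. Tmem26 behaved alike, with 26.6 and 20.7 CPM against 211 and 181 CPM at 4 h (log2 fold change -3.05, adjusted p = 0.00018). Hdac9 was early-lower too, with 9.47 and 7.27 CPM in RANKL with I-BET, against 26.3 and 21.2 CPM in RANKL alone (log2 fold change -1.50, adjusted p = 0.00044), and it rose between 4 and 14 h of I-BET alone. Brd2, Hist1h2bc and Hist1h1c were early-higher, Hist1h2bc by 3.40 on the log2 scale (75.7 and 68.8 CPM against 7.15 and 6.57 CPM, adjusted p = 3.4e-07), and fell later. Whether an early change was a direct effect of BET inhibition was not tested by these RNA levels.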

How the data were processed

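Poly(A) RNA was sequenced from RAW264.7 cells (paired-end reads), and 4 of the 20 libraries, I-BET alone at 14 h and 4 h, were compared. Reads were checked with FastQC and aligned with STAR 2.5.3a to GRCm38 (mm10), and DESeq2 1.16.1 is named, per the submitters' processing notes. The authors deposited raw counts per gene and RPKM. The deposited RPKM equalled counts divided by length and library total for 14104 checked genes (tolerance 0.001) and add no independent data. How reads were counted, and with which strand setting, is not given in the sources used here, and the kit's standard form does not mark strand, which leaves overlapping and antisense genes uncertain. Of 50686 genes, 42745 had a deposited symbol and 7917 took theirs from GENCODE M21. Coordinates are from GENCODE M21.

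Counts were fitted with edgeR 4.0.16 (R 4.3.3): TMM, filterByExpr by group, one mean for each of the 10 groups of all 20 libraries (residual degrees of freedom: 10), quasi-likelihood F tests with robust estimation and Benjamini-Hochberg adjustment over 16042 genes, called under 0.05. In all, 5 comparisons were tested. Levels are CPM on TMM-scaled totals. The 32 gene lists, the members and the fixed genes were chosen with earlier results of these data known. Genes named are 16 fixed ones, the 12 largest called rises and falls with a mean of at least 5 CPM and separated libraries (1 fall is not reported here), up to 4 called members per list by p, and the 4 largest interactions per direction; further members are named as counts need, after their values were seen. Alternatives were RLE, other filters, no robust estimation, DESeq2 1.42.0, only the compared libraries, limma 3.58.1 on log2 RPKM with a pseudocount of 1 or 0.1 (genes reaching RPKM 1 in 2 or more libraries), leaving out each library, and library number as a block. Same-numbered libraries deviated together in all 45 pairs of groups (correlation 0.221 to 0.596, and 0.53 for the 2 I-BET hours). Library number therefore served as a block in an alternative fit, though the labels name no batch. Calls given without the block leave this pairing out, so a gene not called there may be called with it. The biological coefficient of variation was 0.162, and 0.0751 with the block. A fit without 1 library assumes that the lone library varies like the others, and it was made without the block. On simulated data with 15762 genes and 2 libraries per hour, 5 of 67 genes changed 1.5-fold, 53 of 67 changed 2-fold and 66 of 66 changed 4-fold were found, with 10 false calls. The simulation gave every gene the coefficient of 0.162, kept libraries independent and changed only genes with many counts. These rates may therefore not hold for the data. Counting intervals and floors (3 counts) cover counting error only.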

Additional observations from a re-analysis of the deposited data

Results flagged for a closer look

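The change between 4 and 14 h differed between I-BET alone and RANKL with I-BET for 3 genes by the interaction test. The difference of the log2 fold changes was 2.57 for Cd83, 1.31 for Kctd12 and 1.58 for Tnfaip2. Against RANKL alone, the difference was called higher in I-BET alone for 732 genes and lower for 430.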

How the results depend on the processing

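For I-BET alone at 14 h against 4 h, where 418 rises and 434 falls were called, the block gave 1848 and 1487, DESeq2 737 and 652, and the 4 libraries alone 30 and 79. The number of rises was 267 and 257 with limma on log2 RPKM plus 1 and plus 0.1. Leaving out 1 library gave 130 to 136 rises and 134 to 222 falls. For the difference from RANKL with I-BET (3 genes) the block gave 191, testing all genes without a filter 51, requiring a CPM of 1 in 2 libraries 7, DESeq2 62 and limma on log2 RPKM plus 1 gave 7, with 3 to 4 when 1 library was left out. For the difference from RANKL alone (732 higher, 430 lower) the block gave 2058 and 2021, only the compared libraries 415 and 118, DESeq2 746 lower, and leaving out 1 library 476 to 552 and 211 to 295. For RANKL with I-BET at 14 h against 4 h (739 and 769) the block gave 2220 and 1976, only the compared libraries 39 and 150, DESeq2 1130 higher, and leaving out 1 library 277 to 380 and 316 to 445. For RANKL with I-BET against RANKL alone at 4 h (791 and 1037) the block gave 2202 and 2305, only the compared libraries 75 and 270, and leaving out 1 library 266 to 407 and 500 to 567. Without untreated library 2 the higher and lower counts were 327 and 369 for I-BET alone, 662 and 333 for the difference from RANKL alone, 705 and 633 for RANKL with I-BET over time, and 700 and 909 for RANKL with I-BET against RANKL alone. Fitting only the compared libraries leaves fewer residual degrees of freedom, and the cause of the other shifts was not tested. Among the named genes, direction changed only in uncalled ones: Brd3 was -0.026 and -0.028 with limma on log2 RPKM plus 1 and plus 0.1 and ranged over -0.082 to 0.149 when 1 library was left out, as did Csf1r over -0.221 to 0.038, Irf8 over -0.053 to 0.387 and Mmp9 over -0.95 to 0.43. Between 14 h and 4 h of I-BET the block brought 8 named genes past the threshold, Bcl6 (log2 fold change -0.38, adjusted p = 0.0122) and 7 whose values with the block are given above.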

Other observations

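Lists not described above held few calls between 14 h and 4 h of I-BET. The autophagy receptor Sqstm1 was the firmest, with 245 and 238 CPM at 14 h, against 456 and 413 CPM at 4 h (log2 fold change -0.85, SE 0.10, edgeR adjusted p = 0.000453), and it kept its call without any 1 of the 4 libraries. Of 26 tested autophagy genes it was the 1 called lower, and Uvrag and Map1lc3a were called higher (2 lower and 6 higher with the block). Cd74, the invariant chain of MHC class II, had 124 and 153 CPM at 14 h, against 50.6 and 65.5 CPM at 4 h (log2 fold change 1.26, adjusted p = 0.0154). It was the 1 gene called among 19 of antigen presentation, and its call ended without 14 h library 2 (adjusted p = 0.127), 4 h library 1 (0.153) or 4 h library 2 (0.0572). Rgs16, a regulator of G protein signalling, had 0.142 and 0.0908 CPM at 14 h, against 3.48 and 1.155 CPM at 4 h (log2 fold change -4.24, adjusted p = 0.00565), and was kept only without 4 h library 2 (adjusted p between 0.0589 and 0.0697 in the other fits). It was called lower with Dusp1 among 26 feedback genes, of which Rgs10 was called higher (5 lower and 7 higher with the block).

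Metabolic and cell cycle lists mostly had small positive medians. Calls were 2 higher and 1 lower of 25 nucleotide synthesis genes, 2 higher of 30 glycolysis genes (Pdk1 and Aldoc), 1 higher of 24 cholesterol genes (Stard4), 1 higher of 20 G1 genes (Rbl2) and 1 higher of 20 NF-kB genes (Cyld). These calls were not firm. No glycolysis gene was called in any of the 4 fits without 1 library (adjusted p 0.0783 to 0.167 for Pdk1 and 0.105 to 0.148 for Aldoc), Stard4 was called in 2 of the 4, and Rbl2 and Cyld in 1 each. With the block the higher and lower calls were 10 and 1 for nucleotide synthesis, 10 and 3 for glycolysis, 9 and 1 for cholesterol, 10 and 0 for G1 genes and 1 and 2 for NF-kB genes. The lysosome list of 40 held 1 call each way (Atp6v0d1 higher, Npc1 lower), as did 38 histone and DNA modifying enzymes (Hdac9 higher, Kdm4a lower), against 9 higher and 5 lower and 4 higher and 3 lower with the block. No call was made by edgeR among 27 chaperones or 20 p53 targets, where the block made 12 and 6. Over all genes tested the block called 20.8%.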
